A study of Mus musculus with 25 samples.

Results

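The comparison described here set miR-150 knock-in CD4 T cells against wild-type CD4 T cells on day 7 of experimental autoimmune encephalomyelitis (EAE), in which mice are immunized to give a disease like multiple sclerosis. It was chosen by the genotype and day in the sample titles, which gave 4 knock-in and 5 wild-type libraries, 9 of the 25 libraries in the series. The mice were of strain C57BL/6NTac in every group, RNA was taken from their CD4 T cells after sorting, and all 46078 genes of the count table were examined. Knock-in and wild-type cells from naive mice (4 libraries each) and miR-150 knock-out cells at day 7 (4 libraries) were used where a difference had to be set against another stage or genotype. The labels give the genotype only as a knock-in and name no insertion site, promoter, tissue, age or number of mice. The labels do not tie each library to its own mouse. Every p-value therefore rests on the spread among these samples, and that spread may be technical.

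MicroRNAs are short RNAs that guide an Argonaute protein to messenger RNAs and lower their stability or translation, usually through pairing of the seed, bases 2 to 8 of the mature strand. miR-150 is abundant in resting mature lymphocytes and falls when T cells are stimulated. Its best known target is Myb, a transcription factor of lymphoid progenitors. In EAE, CD4 T cells specific for a myelin antigen are primed in lymphoid tissue, divide, and become helper cells such as Th1, Th17 and T follicular helper cells. The series asks how miR-150 bears on that differentiation, and the knock-in group adds a further miR-150 genotype to that question.

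The 9 libraries held 6434118 to 30383082 counts, with 11652606 to 25723483 in the knock-in and the widest range in the wild-type group. Total count, number of genes detected, and the shares of ribosomal RNA and mitochondrial genes did not separate the groups. The means were 18.58% and 17.86% for ribosomal RNA in knock-in and wild-type libraries (exact permutation test, two-sided, p = 0.27) and 0.68% and 0.667% for mitochondrial genes (p = 0.73). With 4 against 5 libraries the smallest p this test allows is 0.0159. The first principal component of log2 CPM (the usual CPM unit of read counts scaled to library size) held 19.6% of the variance, the second 15.5%, and both groups spanned overlapping ranges on all 8 components. Defining markers of the sorted cell type were present alike: Cd4 was at 490 ± 19.5 CPM (SD, n = 5) in wild-type and 491 ± 22.3 CPM (SD, n = 4) in knock-in cells. Cd3e, a subunit of the T cell receptor complex, was at 312 ± 7.9 and 313 ± 14.6 CPM (SD).

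Mir150, the gene of the microRNA under study, was read first. It lies on chromosome 7 from 45121757 to 45121821 (mm10, plus strand; ENSMUSG00000065495). Of the mature strands of this hairpin, miR-150-5p and miR-150-3p, only the 3p strand had a sequence in the reference used. The 3p sequence is shown with its seed in capitals (RefSeq, GRCm38.p6, chr7:45121798-45121819, plus strand). The 5p strand and its seed are not shown, and no seed was matched to any gene here.
miR-150-3p: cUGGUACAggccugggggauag

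Mir150 stood at 13.1, 17.1, 25.7, 12.4 and 13.2 CPM in the wild-type libraries and at 29.2, 15.01, 10.4 and 9.08 CPM in the knock-in libraries. The ranges overlapped, and the knock-in libraries spread more widely. The knock-in minus wild-type log2 fold change was -0.02 (SE 0.27, 95% interval -0.59 to 0.55, edgeR quasi-likelihood test, adjusted p = 0.999). All 4 knock-out day 7 libraries held 0 CPM. Leaving out each of the 9 libraries moved the knock-in value between -0.50 and 0.22, and its direction depended on single libraries. The libraries were made from long RNA fragments and the mature microRNA was not measured, so these counts do not say how much mature miR-150 the knock-in cells held. Myb was at 53.2, 41.7, 42.3, 26.9 and 41.0 CPM in wild-type and 57.3, 32.1, 40.2 and 53.3 CPM in knock-in cells. These ranges overlapped too, with a log2 fold change of 0.16 (SE 0.18, adjusted p = 0.999).

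Across the 14703 genes with enough counts to test, none was called between knock-in and wild-type cells at day 7. The edgeR quasi-likelihood test with Benjamini-Hochberg adjustment called 0 genes at an adjusted p under 0.05 (0%), and the smallest adjusted p was 0.483. DESeq2 and limma voom with quality weights also called 0. Without the filter on low counts edgeR called 96 genes, 84 of which were also tested with it, so the count of 0 depends on that filter. Of 84 genes examined one by one, 15 were called without it, among them Ighg1 and Rnu1a1, whose counts came mostly from single libraries. For Cxcr4 the adjusted p was 4.79e-16, for Dnaja1 2.52e-08, for Cdk5rap1 3.18e-08, for Hsph1 3.45e-05 and for App 0.0417, at nearly the same fold changes. With the filter the adjusted p of Cxcr4 was 0.999. Ighg1 had 1.47e-214 in the unfiltered edgeR fit, though 97.4% of its counts in the 9 libraries came from knock-in replicate 4. Such small p-values thus also went to a gene that 1 library drove, and they are not read as differences here. With the filter, at an unadjusted p under 0.05, there were 684 genes (4.65%), 351 with higher (2.39%) and 333 with lower levels (2.26%) in knock-in cells. The libraries of both groups did not overlap for 119 genes that were higher (0.809%) and 97 that were lower (0.66%) in knock-in cells. Fold changes were balanced around 0, with a median log2 fold change of 0.00388 and 50.9% of genes above 0.

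**Figure D1:**
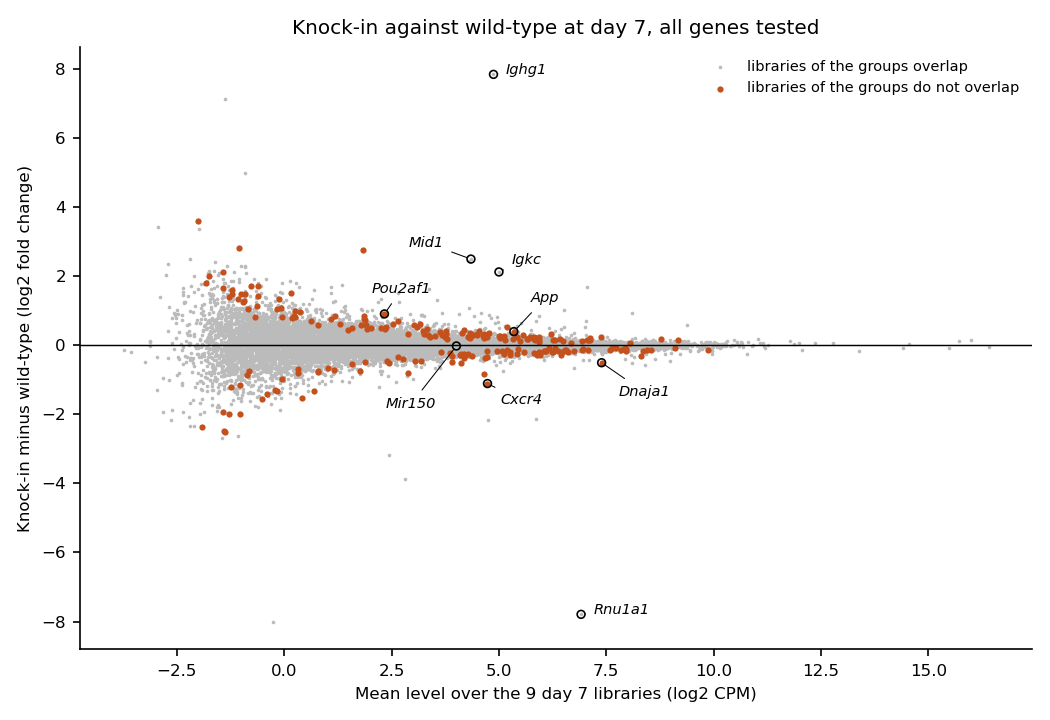
Knock-in minus wild-type log2 fold change at day 7 (vertical axis) against the mean log2 CPM over the 9 libraries (horizontal axis), 1 point per gene tested with counts in these libraries. Orange points are the 119 higher and 97 lower genes whose libraries did not overlap. Ighg1 and Rnu1a1 lie far from 0 through single libraries, while Mid1 was high in 3 of the 4 knock-in libraries.

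The intervals show which differences could have gone unseen. The 95% interval of the fold change lay within 2-fold in either direction for 10779 genes (73.3%) and within 1.5-fold for 8527 (58%). Among the 9571 genes with a mean of at least 5 CPM over the 9 libraries, 97.8% had intervals within 2-fold and 87.6% within 1.5-fold. For these genes a change of 2-fold or more would therefore fall outside nearly all intervals, while low genes such as cytokines were measured too coarsely for such a statement. The common biological coefficient of variation was 0.21. The signature cytokine genes of helper cells were mostly below the level for testing. Il17a had 0 counts in all 9 libraries, which allows up to 3 counts in total, for counting error only. Ifng, the Th1 cytokine, had 17 counts over the wild-type and 15 over the knock-in libraries, and Il4, the Th2 cytokine, had 40 and 22.

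The genes nearest to a call are given as values that did not pass the test. They were taken in each direction by the smallest p among 66 higher and 69 lower genes with a mean of at least 5 CPM and no overlap between libraries. Predicted genes, pseudogenes and receptor segments, a further 7 higher and 2 lower, were left out of this choice. Pou2af1 (ENSMUSG00000032053, chromosome 9, 51213708 to 51240080), a coactivator of octamer-binding factors that is abundant in B cells and also expressed in T follicular helper cells, led those higher in knock-in cells. Its levels were 3.71, 3.84, 3.73, 3.45 and 3.49 CPM in wild-type and 8.88, 3.85, 6.58 and 7.87 CPM in knock-in libraries. The wild-type libraries were nearly equal, and knock-in replicate 2 was level with the highest of them. The log2 fold change was 0.91 (1.87-fold, SE 0.20, unadjusted p = 9.88e-05, adjusted p = 0.483). Without knock-in replicate 2 the log2 fold change was 1.10 with an adjusted p of 0.0352, the single call that leaving out any of the 9 libraries produced. Over all alternatives its adjusted p ran from 0.0352 to 0.999.

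App (ENSMUSG00000022892, chromosome 16, 84949685 to 85173766), the amyloid precursor protein, was at 37.1, 34.9, 36.9, 32.4 and 37.2 CPM in wild-type and 48.8, 48.7, 39.2 and 51.4 CPM in knock-in libraries. Every knock-in library was above every wild-type library, with replicate 3 the nearest (log2 fold change 0.39, SE 0.10, adjusted p = 0.678). Srebf2, the transcription factor that drives cholesterol synthesis genes, was at 163, 164, 152, 134 and 158 CPM against 192, 185, 169 and 178 CPM (log2 fold change 0.23, SE 0.06, adjusted p = 0.818). Il6st, the gp130 signalling subunit shared by interleukin-6 family receptors, was at 368, 417, 418, 450 and 424 CPM against 455, 450.01, 487 and 501 CPM. The wild-type maximum and the knock-in minimum of Il6st nearly touched, and its log2 fold change was 0.19 (SE 0.06, adjusted p = 0.928). Of the other leading genes, Cep89, a centrosomal protein, had a log2 fold change of 0.58, and Bckdha, a subunit of the branched-chain keto acid dehydrogenase, one of 0.60. The DNA repair nuclease Fan1 (0.40), the nuclear lamin Lmnb2 (0.36) and the helicases Ddx52 and Dhx57 (both 0.24) completed the 10 genes so chosen, with unadjusted p from 9.88e-05 to 0.00268. Knock-out against wild-type cells at day 7 leaned the same way for Pou2af1 (log2 fold change 0.70), Cep89 (0.56), Bckdha (0.45) and Fan1 (0.32). Values there were smaller for Il6st and Dhx57 (both 0.10), Ddx52 (0.09), Lmnb2 (0.05) and Srebf2 (0.03), and opposite for App (-0.23). None of these genes was called in that comparison.

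Among the genes lower in knock-in cells, Ube2j1 had the smallest p. Ube2j1 (ENSMUSG00000028277, chromosome 4, 33031416 to 33052363) is a ubiquitin-conjugating enzyme of the endoplasmic reticulum. It was at 69.6, 69.3, 68.1, 65.3 and 64.3 CPM in wild-type and 54.6, 55.04, 59.3 and 53.7 CPM in knock-in libraries, a difference of small size and small spread (log2 fold change -0.27, SE 0.06, adjusted p = 0.483). Dnaja1 (ENSMUSG00000028410, chromosome 4, 40722150 to 40737149), a co-chaperone of heat shock protein 70, was at 179, 204.7, 168, 215.1 and 200.96 CPM against 120.2, 123, 156 and 145 CPM. The lowest wild-type library of Dnaja1 was above the highest knock-in library (log2 fold change -0.51, SE 0.13, adjusted p = 0.678). Ulbp1, a ligand of the NKG2D receptor from a family of similar genes whose reads may be split between copies, had the widest difference of these 10 genes after Cdk5rap1. It was at 8.78, 8.3, 11.7, 9.8 and 6.73 CPM against 5.57, 4.46, 5.44 and 5.27 CPM (log2 fold change -0.81, SE 0.21, adjusted p = 0.678). Ctsw, a cathepsin of cytotoxic lymphocytes, had a log2 fold change of -0.48, and Pgm2l1, which makes glucose 1,6-bisphosphate, one of -0.51. Cdk5rap1, which modifies mitochondrial transfer RNA (-0.84), Acat1, an acetyl-CoA acetyltransferase (-0.29), the Max partner Mxd4 (-0.29), Tex2 (-0.23) and Qprt, of NAD synthesis (-0.37), completed the 10 so chosen, with unadjusted p from 0.000131 to 0.00294. Knock-out against wild-type cells at day 7 leaned the same way for Cdk5rap1 (log2 fold change -0.69), Ulbp1 (-0.61), Dnaja1 (-0.32) and Pgm2l1 (-0.26). Values there were nearer 0 for Ctsw (-0.11), Tex2 (-0.09), Acat1 (-0.08), Ube2j1 and Qprt (both -0.05) and Mxd4 (0.005). None of these genes was called in that comparison.

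**Figure D2:**
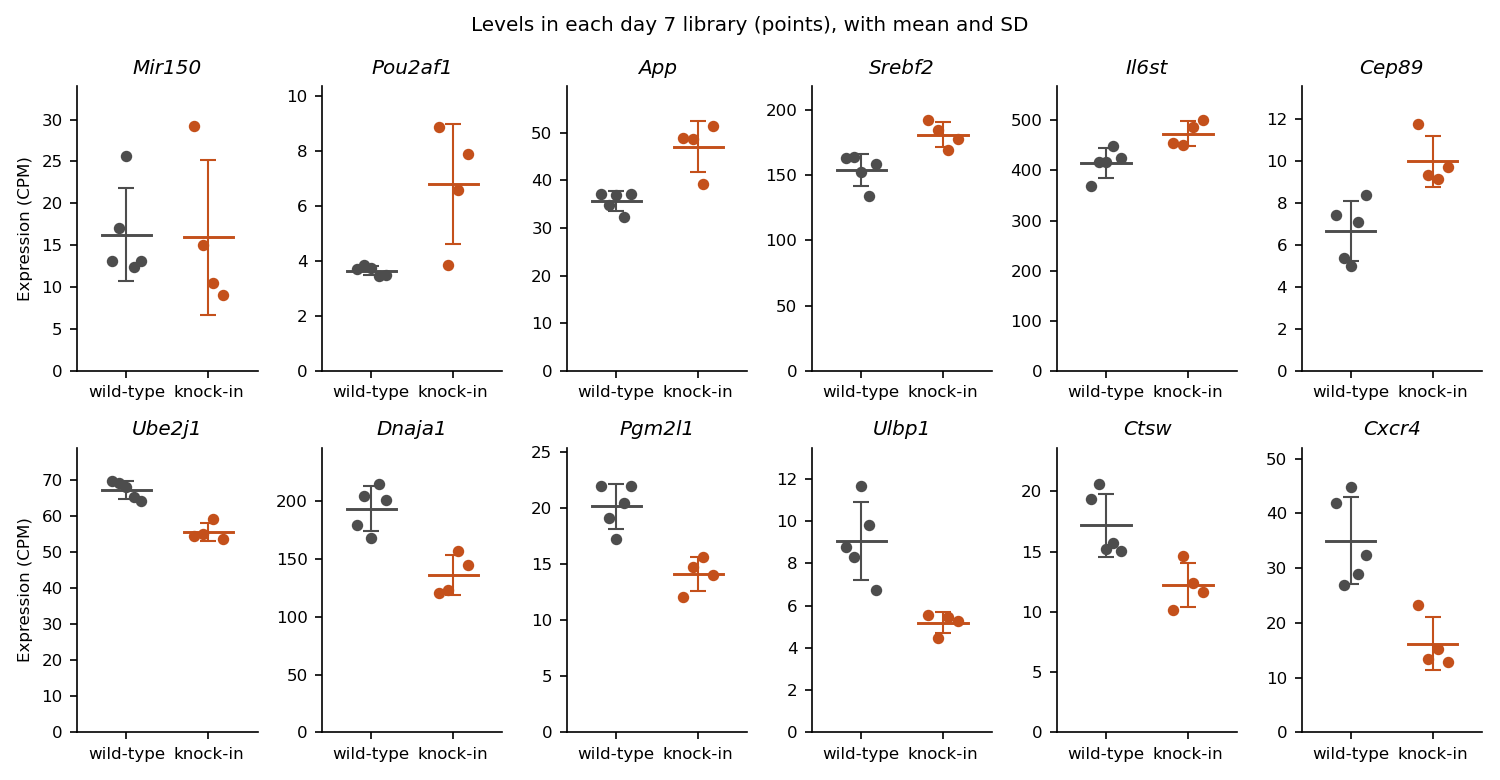
Level in CPM (vertical axes, from 0) of 12 genes in each wild-type (grey, n = 5) and knock-in (orange, n = 4) library at day 7, with the mean and SD. The libraries of both groups overlap for Mir150. They do not overlap for the other genes, most of which were chosen for that, and Pou2af1 is parted only barely in knock-in replicate 2.

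Of 22 genes reported as miR-150 targets, 20 were tested, and 10 were higher and 10 lower in knock-in cells, with none called. Their median log2 fold change was -0.02, against 0.00388 for all genes. At an unadjusted p under 0.05, 2 were higher and 4 lower, against 2.39% and 2.26% of all genes. Cxcr4, the receptor for CXCL12, was lower with 41.9, 26.9, 44.8, 28.98 and 32.4 CPM in wild-type and 23.2, 13.4, 15.3 and 12.8 CPM in knock-in libraries. No knock-in library of Cxcr4 reached the lowest wild-type library, yet the spread within groups was wide (log2 fold change -1.11, SE 0.44, unadjusted p = 0.0171, adjusted p = 0.999). Cbl, a ubiquitin ligase that restrains T cell receptor signalling, was at 251, 283, 251, 263 and 261 CPM against 218.9, 232, 238 and 249.5 CPM (log2 fold change -0.16, SE 0.05, adjusted p = 0.999). The highest knock-in library of Cbl fell just short of the lowest wild-type library. Tnfaip3, an inhibitor of NF-kappaB signalling (-0.24), and Pdcd4, a translation inhibitor (-0.17), were among the other lower genes. Slc2a1, the glucose transporter GLUT1, was on the higher side, at 25.2, 20.1, 22.1, 22.2 and 23.7 CPM against 27.8, 29.6, 29.6 and 25.9 CPM (log2 fold change 0.31, SE 0.10, adjusted p = 0.949). P2rx7, an ATP-gated ion channel, had a log2 fold change of 0.49 with overlapping libraries.

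Of 16 tested genes for proteins that make microRNAs or act with them, none was called, 3 were higher and 13 lower in knock-in cells, with a median log2 fold change of -0.05. At an unadjusted p under 0.05, 0 were higher and 3 lower, against 2.26% of all genes on the lower side. The direction of the median held in every alternative run. Ago2, the Argonaute that can cut its target, was at 367, 412, 383, 396 and 400.2 CPM in wild-type and 338, 364, 354 and 354 CPM in knock-in libraries. Its libraries did not overlap (log2 fold change -0.15, SE 0.06, unadjusted p = 0.0161, adjusted p = 0.999). Tut7, a uridyltransferase that acts on microRNA precursors, was at 201.9, 203.7, 195, 201.7 and 204.1 CPM against 175, 182, 187 and 190 CPM (log2 fold change -0.14, SE 0.05, adjusted p = 0.999). In naive cells the same 16 genes had a median of 0.03.

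Helper cell genes differed more among knock-in libraries than between genotypes. T follicular helper genes had 14 higher and 4 lower of 18 tested, with a median log2 fold change of 0.20 and 4 higher at an unadjusted p under 0.05, against 2.39% of all genes. Th17 genes had 9 higher and 5 lower of 14 (median 0.08), Th1 genes 12 and 5 of 17 (0.08), Th2 genes 4 and 4 of 8 (0.04), and regulatory T cell genes 15 and 2 of 17 (0.16). None of these genes was called. Cxcr5, the receptor that draws cells to B cell follicles, showed the pattern plainly: 8.73, 11.2, 15.9, 3.28 and 6.67 CPM in wild-type and 37.5, 5.23, 6.74 and 20.6 CPM in knock-in libraries. Knock-in replicates 1 and 4 were above all wild-type libraries, and replicates 2 and 3 sat in the lower part of the wild-type range. Maf, a factor of Th17 and T follicular helper cells, was at 58.2, 13.2, 13.6 and 33.5 CPM in knock-in libraries against 11.8 to 30.7 CPM in wild-type. Tox2, a further follicular helper factor, was at 30.0, 3.23, 4.18 and 11.7 CPM against 2.42 to 10.9 CPM. Il1r1, the interleukin-1 receptor of Th17 cells, was at 20.5, 3.39, 2.25 and 9.51 CPM against 1.92 to 10.7 CPM, and Il21 at 8.83, 0.385, 0.591 and 3.46 CPM against 0.601 to 3.9 CPM.

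The same libraries stood out in the mean log2 CPM of whole lists. For Th17 genes the knock-in libraries were at 2.96, 1.01, 1.16 and 2.34 and the wild-type libraries between 1.119 and 2.07. For cell cycle genes they were at 3.88, 2.34, 2.44 and 3.31, with wild-type libraries from 1.83 to 3.12 and replicate 4 the lowest. Cell cycle genes had 36 higher and 6 lower of 42, with a median log2 fold change of 0.26. Without knock-in replicate 1 these counts became 12 higher and 30 lower with a median of -0.10, and without wild-type replicate 4 the median was 0.07. For knock-out against wild-type cells at day 7 the median of cell cycle genes was 0.32. Without knock-in replicate 1 the Th17 median became -0.27 and the T follicular helper median -0.03, so these directions rested on that library. In bulk RNA more cells of a type and more RNA per cell cannot be told apart.

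**Figure D3:**
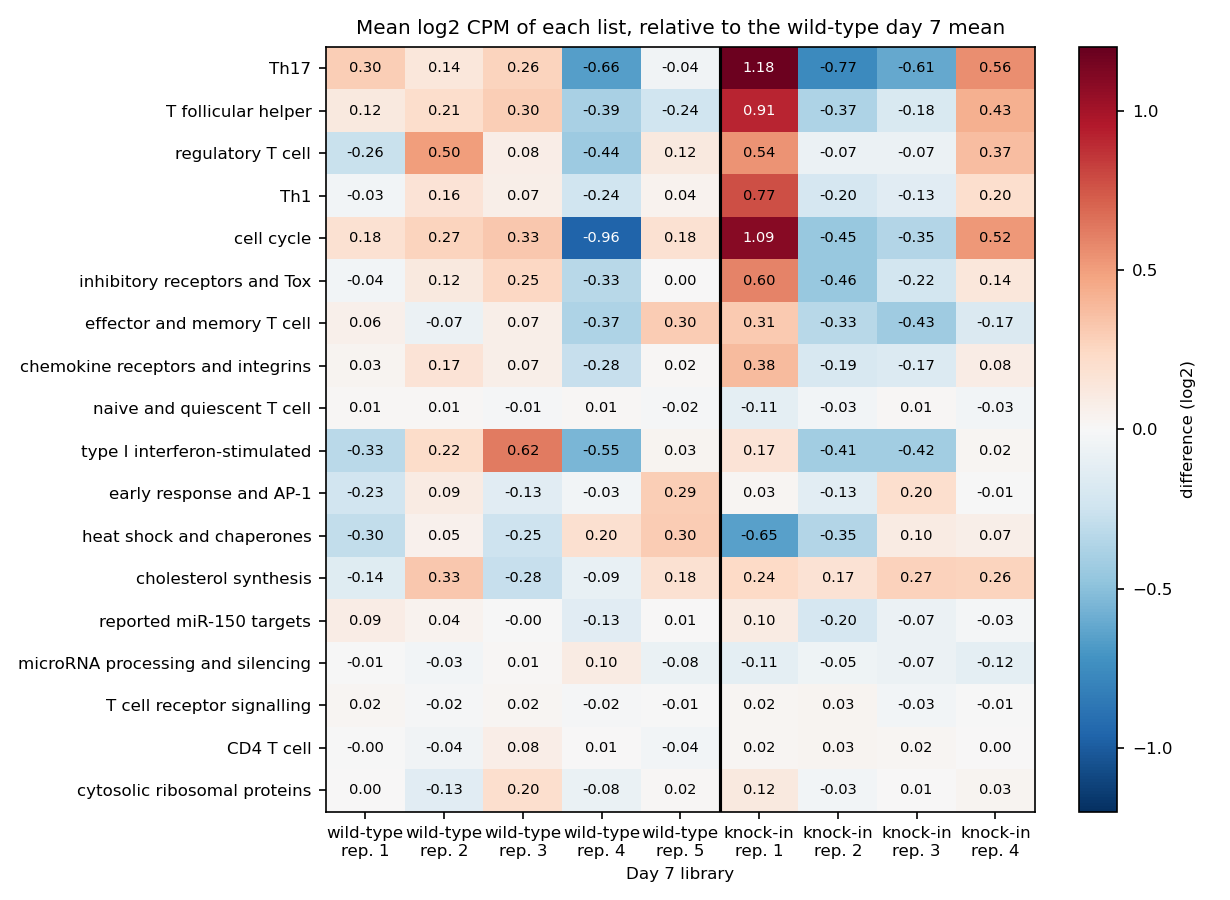
Mean log2 CPM of each list in each day 7 library minus the mean of the 5 wild-type libraries (color and printed value), with wild-type libraries left and knock-in libraries right of the line. Th17, T follicular helper and cell cycle genes are above the wild-type mean in knock-in replicates 1 and 4 (Th17 1.18 and 0.56) and below it in replicates 2 and 3 (-0.77 and -0.61), while cholesterol synthesis genes are above it in all 4.

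Lineage-defining factors gave narrower values. Foxp3, the regulatory T cell factor, was at 51.3, 71.0, 57.3, 37.4 and 63.2 CPM in wild-type and 65.1, 69.6, 56.2 and 57.8 CPM in knock-in cells (log2 fold change 0.16, 95% interval -0.10 to 0.42). Il2ra, the interleukin-2 receptor alpha chain, had a log2 fold change of 0.04 (95% interval -0.28 to 0.35). Gata3, the Th2 factor, had 0.12 (-0.08 to 0.32) and Bcl6, the follicular helper factor, 0.05 (-0.21 to 0.31). For these 4 genes a 1.5-fold change lay outside the interval. For Tbx21, the Th1 factor, at 0.609 ± 0.449 CPM (SD, n = 5) in wild-type and 1.2 ± 0.676 CPM (SD, n = 4) in knock-in cells, the interval ran from -0.25 to 2.28. This low level could not separate no change from a change of 2-fold. Cd40lg, the helper signal to B cells, was at 63.0, 72.2, 71.9, 73.5 and 72.6 CPM against 78.0, 86.8, 88.1 and 72.7 CPM (log2 fold change 0.21, SE 0.08, adjusted p = 0.999), overlapping through knock-in replicate 4 alone. Izumo1r, the folate receptor 4 of regulatory T cells, had 0.20 (SE 0.09, adjusted p = 0.999).

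Genes of resting and of memory cells were more often lower than higher in knock-in cells, with none called. Of 20 naive and quiescent T cell genes, 8 were higher and 12 lower (median -0.03). Members with an unadjusted p under 0.05 were Dusp10, a phosphatase of stress kinases (-0.30, SE 0.10), and Btg1, which restrains growth (-0.16, SE 0.07). That made 0 higher and 2 lower, against 2.26% of all genes on the lower side. Of 23 effector and memory genes, 8 were higher and 15 lower (median -0.10). At an unadjusted p under 0.05, 0 were higher and 3 lower, against the same 2.26%. Without overlap between libraries 1 was lower, against 0.66% of all genes. Ccl5, a chemokine of memory and cytotoxic cells, was at 2.30, 1.08, 2.73, 1.123 and 2.04 CPM against 0.803, 1.001, 0.237 and 0.692 CPM, with no overlap (log2 fold change -1.52, SE 0.51, adjusted p = 0.999). Crip1 had -0.34 (SE 0.14, adjusted p = 0.999). T cell receptor signalling genes had 12 higher and 11 lower of 23, with a median of 0.000630, and genes of the PI3K, Akt, mTOR and Foxo pathway 8 and 15 of 23 (median -0.02). Pik3r1, the regulatory subunit of PI3K, was the non-overlapping member of the last list, at 230 to 242 CPM in wild-type and 207.9 to 218.8 CPM in knock-in libraries (log2 fold change -0.15, SE 0.05, adjusted p = 0.999).

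Genes of cholesterol synthesis had like levels in all knock-in libraries. Of 23 tested, 21 were higher and 2 lower, with a median log2 fold change of 0.22, and 5 had an unadjusted p under 0.05, against 2.39% of all genes on that side. None was called. The mean log2 CPM of the list was 4.05, 3.98, 4.08 and 4.07 in the knock-in libraries and 3.67, 4.14, 3.53, 3.72 and 3.99 in the wild-type libraries. The knock-in libraries were close together and the wild-type libraries spread over and below them. Leaving out each of the 9 libraries kept the median between 0.18 and 0.27. Scd2, a desaturase that makes monounsaturated fatty acids, was at 51.8, 75.5, 58.0, 72.6 and 75.2 CPM against 90.3, 81.7, 82.5 and 77.4 CPM (log2 fold change 0.32, SE 0.10, adjusted p = 0.949). Scd2 and the transcription factor Srebf2 were the 2 list members without overlap, against 0.809% of all genes on the higher side. Neither is itself an enzyme of cholesterol synthesis. Sqle, the squalene epoxidase, was at 4.91, 13.5, 2.59, 6.26 and 7.39 CPM against 11.1, 10.6, 13.5 and 13.2 CPM (0.87, SE 0.29, adjusted p = 0.999). Wild-type replicate 2 of Sqle was as high as the knock-in libraries. Hmgcs1, an early enzyme of the pathway, had 0.29 (SE 0.14). In naive cells 18 of the 23 were higher in knock-in cells, with a median of 0.10, and no interaction with stage was called. Sqle (interaction 1.33, SE 0.44) and Srebf2 (0.22, SE 0.09) had an unadjusted p under 0.05 for it (adjusted p = 0.999 for both).

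Type I interferon-stimulated genes had 34 of 35 lower in knock-in cells, with a median log2 fold change of -0.16. Of these, 1 had an unadjusted p under 0.05, near the share of 2.26% of all genes on that side. The wild-type libraries of this list ranged from 4.16 to 5.34 in mean log2 CPM and the knock-in libraries from 4.29 to 4.88. Wild-type replicate 3 was the highest, and without it 15 were higher and 20 lower with a median of -0.02. With consecutive library numbers as a block the median was 0.02. For knock-out against wild-type cells at day 7 the median of this list was -0.205. Irf9, a subunit of the factor that interferon activates, was at 93.1, 118, 121, 99.2 and 109 CPM against 95.5, 81.4, 88.3 and 103 CPM (-0.23, SE 0.11, adjusted p = 0.999). In naive cells all 35 were lower in knock-in cells, with a median of -0.39 and none called.

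**Figure D4:**
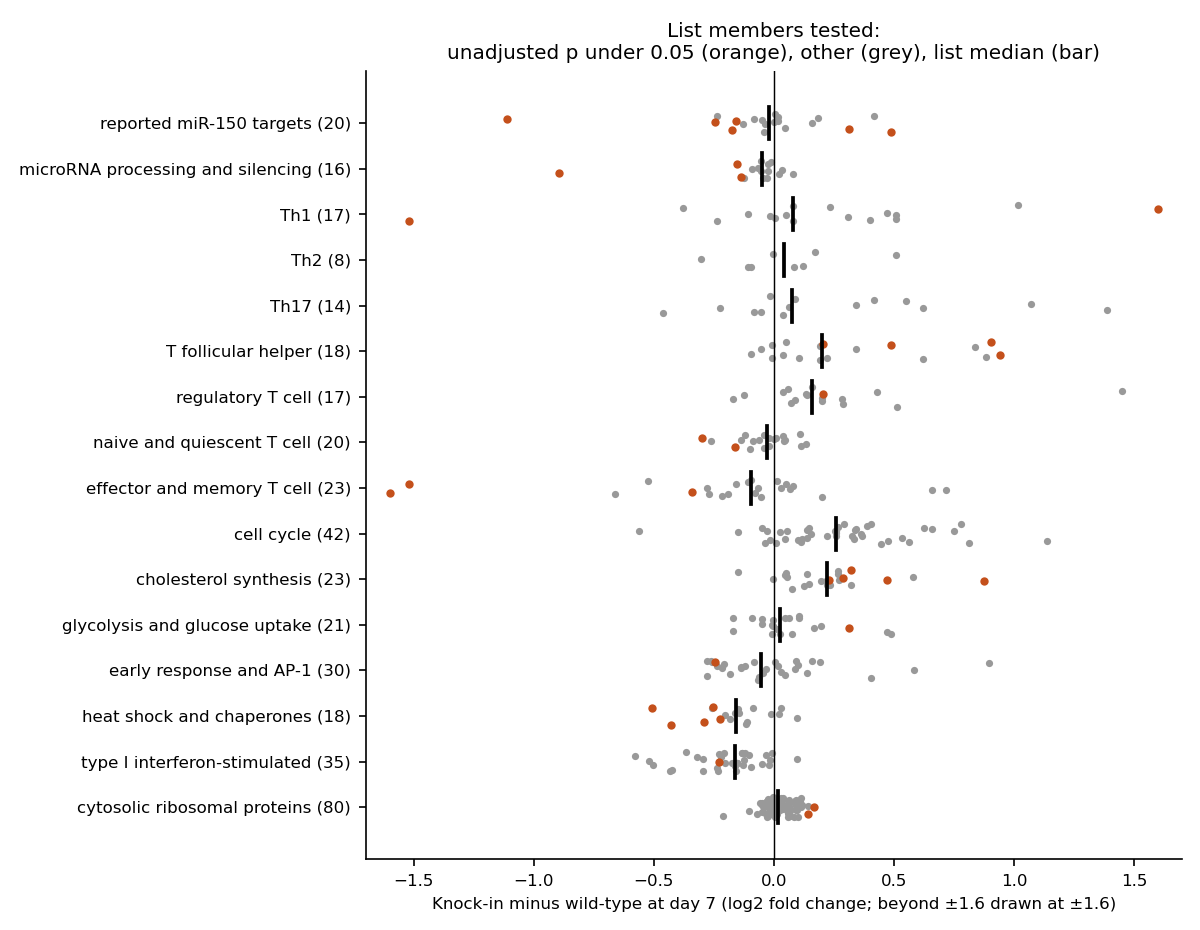
Knock-in minus wild-type log2 fold change at day 7 (horizontal axis) of every tested member of 16 lists (rows, number tested in brackets). Orange points had an unadjusted p under 0.05, grey points did not, and the bar is the list median. Medians run from -0.16 (interferon-stimulated and heat shock genes) to 0.26 (cell cycle genes).

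Heat shock genes had opposite median differences between genotypes in naive and day 7 cells, with no member called. Heat shock proteins are chaperones that fold or refold other proteins, and heat shock factors switch their genes on when cells are stressed, also during handling. At day 7, 3 were higher and 15 lower of 18 in knock-in cells, with a median log2 fold change of -0.16 and 5 lower at an unadjusted p under 0.05, against 2.26% of all genes. This lower level was not particular to the knock-in: knock-out against wild-type cells at day 7 had a median of -0.28. Knock-in against knock-out cells had a median of 0.02, with 11 of 18 above 0. In naive cells all 18 were higher in knock-in cells, with a median of 0.38. The interaction of genotype with stage was negative for 17 of 18, with a median of -0.55, and 12 of them had an unadjusted p under 0.05, against 1.93% of all genes on that side. edgeR called 0 genes for the interaction (0%), with 558 at an unadjusted p under 0.05, while DESeq2 called 1 and limma voom 2. The mean log2 CPM of the list was 5.98 to 6.25 in naive wild-type, 6.50 to 6.80 in naive knock-in, 6.44 to 7.04 in day 7 wild-type and 6.09 to 6.84 in day 7 knock-in libraries. The naive groups did not overlap and the day 7 groups did. Depth differed alongside: the naive wild-type libraries held 6024043 to 9351180 counts and the naive knock-in libraries 6454287 to 45739082. Its part in the result was not tested.

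Hsph1, a nucleotide exchange factor for heat shock protein 70, was at 134, 153, 139, 159 and 193 CPM in wild-type and 97.3, 92.4, 140.4 and 131 CPM in knock-in cells at day 7. Its log2 fold change was -0.43 (SE 0.17) at day 7 and 0.74 (SE 0.19) in naive cells, and the interaction was -1.16 (SE 0.25, adjusted p = 0.359). Dnaja1 had an interaction of -0.93 (SE 0.19, adjusted p = 0.359) and Chordc1, a partner of heat shock protein 90, one of -0.64 (SE 0.14, adjusted p = 0.359). Chordc1 was at 60.0, 53.0, 55.1, 49.6 and 55.7 CPM against 42.6, 42.6, 46.2 and 52.1 CPM at day 7. Hspd1, a mitochondrial chaperonin, had -0.22 (SE 0.09) and Stip1, which links heat shock proteins 70 and 90, -0.29 (SE 0.12) at day 7. Knock-out against wild-type cells at day 7 had -0.55 for Hsph1, -0.32 for Dnaja1, -0.24 for Chordc1 and -0.12 for Hspd1. The most inducible members spread widely: Hspa1a, whose reads may be shared with its near-identical neighbour Hspa1b, was at 14.9, 81.8, 27.7, 184 and 227 CPM in wild-type and 4.58, 52.7, 199 and 131 CPM in knock-in libraries. Its log2 fold change was -0.15 (SE 0.71), and leaving out wild-type replicate 4 or 5 or knock-in replicate 1 or 2 turned it positive, up to 0.33.

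Promoters of this list were searched for a heat shock element, GAANNTTCNNGAA, on both strands, in windows of promoter sequence from 250 bases before to 50 bases after each gene start (RefSeq, GRCm38.p6). Of the 20 listed genes 16 had a window, and 4 of these held a match (Chordc1, Hsph1, Hspd1 and Hspe1). Counted by window, 5 of the 22 windows of the list held a match, against 0.603% of all 32851 windows. The stretches are shown, with the matched bases in capitals, because 3 of these genes were among the 5 with the lowest p at day 7. Chordc1 (chr9:18292260-18292288, plus strand) holds 3 overlapping matches, Hsph1 (chr5:149636287-149636315, minus strand), where it lies just past the gene start, 1, and Hspd1 (chr1:55088053-55088081, minus strand) and Hspe1 (chr1:55088054-55088082, plus strand) share 2 overlapping matches between them.
Chordc1: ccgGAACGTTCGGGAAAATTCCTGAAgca
Hsph1: gtaaaatgctgcagaTTCTGGAAAGTTCt
Hspd1: gggccTTCCGGAAGGTTCTAGAAcggacc
Hspe1: gtccgTTCTAGAACCTTCCGGAAggcccc

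Hspe1, the partner of Hspd1 on the other side of that shared promoter, had a log2 fold change of -0.09 (SE 0.12) at day 7 and 0.44 (SE 0.13) in naive cells. Early response genes, which cells switch on within minutes of a stimulus, followed a like order between stages. At day 7, 13 were higher and 17 lower of 30 in knock-in cells (median -0.05), and in naive cells 27 of 30 were higher (median 0.18). The naive comparison called 2 of all genes (0.0136%), and both were of this list: Jun and Junb, subunits of the AP-1 factor. The log2 fold change in naive cells was 1.90 for Jun (SE 0.29, edgeR adjusted p = 0.00913). For Junb it was 0.68 (SE 0.12, edgeR adjusted p = 0.0345). At day 7 Jun was at 199, 269, 182, 281 and 365 CPM in wild-type and 216.03, 269, 390.5 and 308 CPM in knock-in libraries. Its log2 fold change was 0.19 (SE 0.25) and its interaction -1.71 (SE 0.39, adjusted p = 0.359). Junb had 0.03 (SE 0.10) at day 7 and an interaction of -0.65 (SE 0.16, adjusted p = 0.495). Fos, their partner, had 0.09 (SE 0.39) at day 7 against 1.65 in naive cells (SE 0.62, adjusted p = 0.9995). The naive comparison called 0 genes without wild-type replicate 1, 2 or 3 or knock-in replicate 1 and with consecutive library numbers as a block, 1 without wild-type replicate 4 or knock-in replicate 2 or 4, and 5 without knock-in replicate 3.

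**Figure D5:**
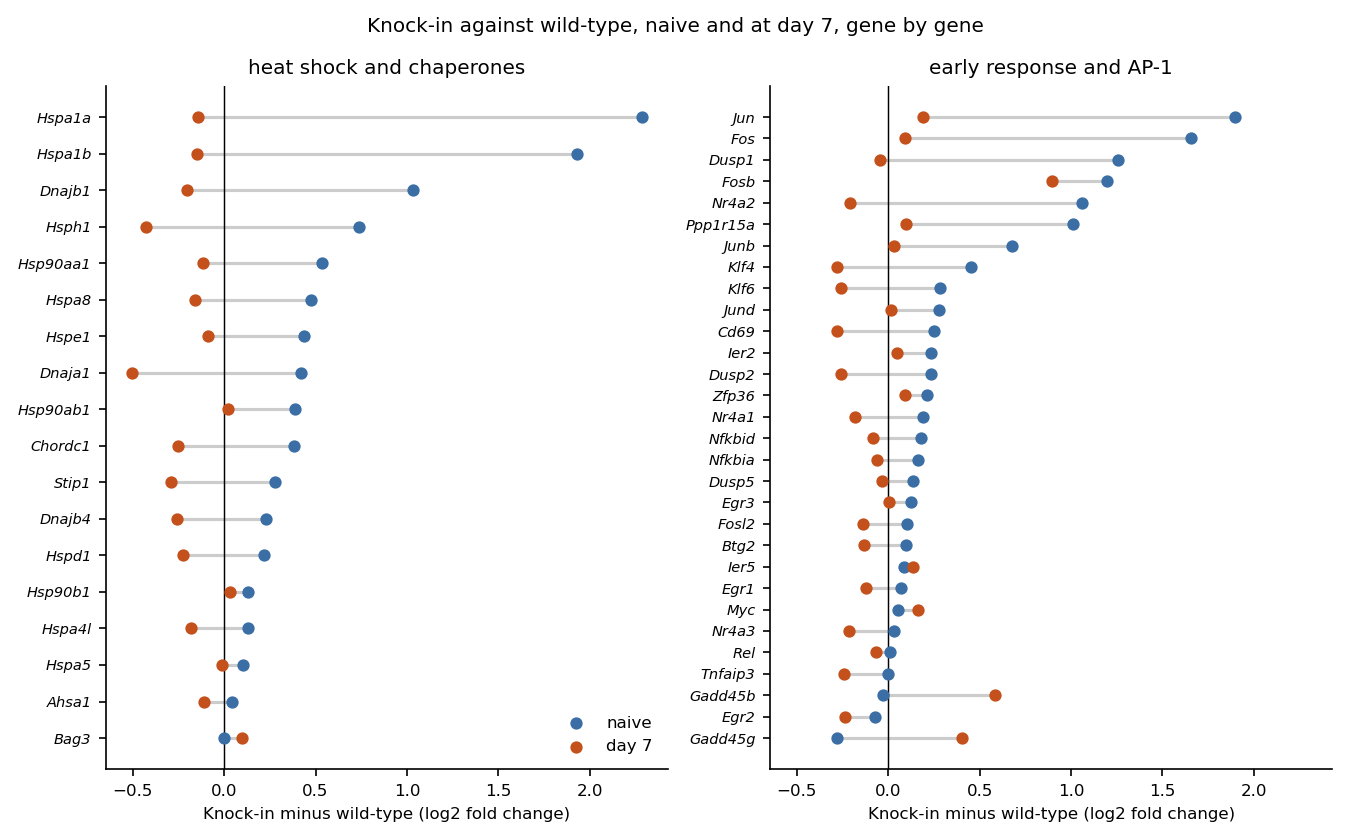
Knock-in minus wild-type log2 fold change (horizontal axis) of each tested heat shock (left, 18) and early response gene (right, 30) in naive cells (blue) and at day 7 (orange). Blue points lie right of 0 for 18 and 27 genes, and orange points lie left of 0 for 15 and 17 genes.

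Knock-in and knock-out cells at day 7 were compared directly, since their comparisons with wild-type cells share the same controls. edgeR called 55 genes (0.374%), 35 higher (0.238%) and 20 lower (0.136%) in knock-in cells, Mir150 among the higher. The wild-type mean lay between the others for 52 of the 55 and was nearer to the knock-in by fitted fold change for 46. This is a description, since the genes were chosen for the distance between the outer groups. In the knock-in against wild-type comparison 17 of the 55 had an unadjusted p under 0.05 and 10 had no overlap between libraries, beside 4.65% of all genes for the first and 0.809% higher and 0.66% lower for the second. The 55 were chosen with the same knock-in libraries, so nothing is read from these counts. Their median absolute log2 fold change was 0.11 there and 0.30 for knock-out against wild-type. Cytosolic ribosomal protein genes made up 15 of the 35 higher genes and 1 of the 20 lower ones. Many of these genes have processed copies elsewhere in the genome, so their counts are uncertain. Of 80 such genes tested, 78 were higher in knock-in than knock-out cells (median 0.27), and 55 were higher in knock-in than wild-type cells (median 0.02).

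App was higher in knock-in than knock-out cells by 0.62 (SE 0.10, adjusted p = 0.00526), and Slc2a1 by 0.48 (SE 0.10, adjusted p = 0.0251). Cep170b, a centrosomal protein, had 0.996 (SE 0.15, adjusted p = 0.00221), with 12.3, 9.99, 14.98, 9.33 and 11.96 CPM in wild-type and 16.2, 17.5, 14.7 and 17.1 CPM in knock-in libraries. Gpr183, an oxysterol receptor that positions lymphocytes in follicles, had 0.54 (SE 0.12, adjusted p = 0.0323) and Rpl17 0.41 (SE 0.06, adjusted p = 0.00221). On the lower side were Ccl5 (-2.43, SE 0.52, adjusted p = 0.0274), Ccdc141 (-1.47, SE 0.26, adjusted p = 0.00877) and Cbl (-0.28, SE 0.05, adjusted p = 0.0162). The number called depended on single libraries: it was 23 without knock-out replicate 3, the deepest library, 35 and 28 without knock-out replicates 2 and 4, and 20, 15 and 21 without knock-in replicates 1, 2 and 4.

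Markers of other cells and genes driven by single libraries were read beside these results. Ighg1, an immunoglobulin heavy chain, was at 259 CPM in knock-in replicate 4 and between 0 and 3.85 CPM in the other 8 libraries. Igkc, the kappa light chain, was at 198 CPM there and between 1.73 and 19.8 CPM elsewhere. All 5 tested plasma cell genes were higher in knock-in cells, against 50.9% of all genes. Ighg1 and Xbp1 had an unadjusted p under 0.05, against 2.39% of all genes on that side. The summed picture was uneven: the mean log2 CPM of plasma cell genes was 3.80 in knock-in replicate 4 and 0.74 to 1.58 in the other knock-in libraries, against -1.67 to 1.57 in wild-type. B cell genes had 9 higher and 7 lower of 16 (mean log2 CPM -0.46 to 1.99 in knock-in and -0.57 to 1.503 in wild-type libraries). In knock-in replicates 1 to 4 the B cell mean was 0.73, -0.46, 0.17 and 1.99. Replicate 2 was lowest and replicates 1 and 4 highest, as for Pou2af1. T follicular helper genes had the same lowest and highest replicates, with a mean log2 CPM of 5.30, 4.02, 4.21 and 4.81. In wild-type libraries the B cell mean ran from -0.57 to 1.503 while Pou2af1 stayed at 3.45 to 3.84 CPM. The part of B cells or of T follicular helper cells in the values of Pou2af1 was not tested. Myeloid genes had 8 higher and 3 lower of 11, and Cebpb was at 8.27 CPM in knock-in replicate 1 against 3.69 to 5.72 CPM in the others. Genes of cytotoxic and gamma-delta lymphocytes had 5 higher and 7 lower of 12, the lower Ctsw among them. Cd8b1 was at 10.2 and 8.9 CPM and Trdc at 7.45 and 8.28 CPM in knock-in and wild-type cells.

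Mid1, a ubiquitin ligase gene that spans the edge of the pseudoautosomal region of the X chromosome (169685199 to 170005736), was at 52.9, 43.7, 6.43 and 48.2 CPM in knock-in and 4.0 to 9.01 CPM in wild-type libraries. Its log2 fold change was 2.49 (SE 0.62, adjusted p = 0.678). Over all 25 libraries its levels fell into separate bands, with 14 libraries from 4.0 to 10.2 CPM, 4 from 19.4 to 26.4 and 7 from 41.9 to 55.3. The highest band held 3 of the 4 knock-in day 7 libraries and also naive libraries, up to 43.2 CPM in wild-type and 55.3 CPM in knock-in. Rnu1a1, a gene of the U1 small nuclear RNA with many copies, was at 1077 CPM in wild-type replicate 5 and at 0.346 to 1.59 CPM in the other 8 libraries. Genes around Mir150, which the labels do not name as the site of the knock-in, were even: of 71 tested within 1 Mb of Mir150, 38 were higher and 33 lower, with a median of 0.01. Around Gt(ROSA)26Sor, a frequent site of inserted transgenes, 13 of 26 were higher, and Gt(ROSA)26Sor had a log2 fold change of -0.04 (SE 0.23). Reads of an insert that the gene models do not hold would not appear in the table.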

How the data were processed

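RNA of sorted CD4 T cells was prepared with a miRNeasy kit, made into libraries with a SMARTer stranded total RNA kit and sequenced on an Illumina NovaSeq, per the labels' protocols. The authors deposited 1 table of raw read counts per gene for all 25 libraries, and mm10 and DESeq2 are named in the submitters' processing notes. Not given in the sources used here are the aligner, the counter, the strand setting and the annotation. Reads of overlapping or antisense genes cannot be told apart. Gene names and positions came from GENCODE M21, which matched 45229 of 46078 identifiers, and 0 value columns were left without a sample.

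Genes were kept by the edgeR filter on counts (minimum 10, total 15), which left 14703. edgeR 4.0.16 in R 4.3.3 fitted the counts of all 25 libraries with a mean for each of the 6 groups, TMM scaling and quasi-likelihood tests, adjusted by Benjamini-Hochberg over all genes tested (threshold 0.05). Standard errors are the fold change over the root of F, and intervals cover 95%. CPM values are TMM-scaled. Alternatives used DESeq2 1.42.0, limma 3.58.1, other filters and scaling, library number as a covariate or block, and left-out libraries. Values were tabulated with pandas 2.3.3 and drawn with matplotlib 3.10.9 in Python 3.11.15. The procedure was tested on simulated data. Genes were named by smallest p among those with at least 5 CPM and no overlap, leaving out predicted genes, pseudogenes and receptor segments, by smallest p with at least 1 CPM in each list, and as lineage-defining genes; others (such as Mid1, Rnu1a1, Jun and Fos) were named after their values were seen. The comparison and all lists were chosen with earlier results of these data known. Some list members are not reported here.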

Additional observations from a re-analysis of the deposited data

Results flagged for a closer look

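In each day 7 group, a library was marked when its distance to the nearest other library took up more of the group's range than Dixon's 95% limit allows. This marked 13 of 168 group tests over 84 genes, and chance marks about 1 in 20. Ighg1 stood at 259.1 CPM in knock-in replicate 4, with the next library at 3.849 CPM, and at 0.9667 CPM in wild-type replicate 3 with the others at 0. Igkc stood at 197.9 CPM in the same knock-in library, with the next at 12.89 CPM. Rnu1a1 stood at 1077 CPM in wild-type replicate 5, with the next at 1.588 CPM. Fos was at 108.7 CPM in knock-in replicate 3 (next 49.11) and Junb at 155.4 CPM in wild-type replicate 5 (next 120.3). Cebpb was at 8.265 CPM in knock-in replicate 1 (next 5.716) and Cd8b1 at 11.92 CPM in wild-type replicate 4 (next 8.597). Il2ra was low in knock-in replicate 2, at 68.12 CPM (next 86.62), and Cd40lg was low in wild-type replicate 1, at 62.96 CPM (next 71.95). Ddx52 was at 54.21 CPM in knock-in replicate 4 (next 45.95). Wild-type replicate 3 was high for Izumo1r, at 61.45 CPM (next 51.0), and low for Tut7, at 195.3 CPM (next 201.7).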

How the results depend on the processing

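The count of 0 genes called between knock-in and wild-type cells at day 7 held under RLE scaling, DESeq2, limma voom, the 5 CPM filter, a fit of these groups alone, removal of mitochondrial, ribosomal RNA and haemoglobin genes, and library number as covariate or block. Leaving out single libraries gave 0 to 1. With no low-count filter 96 were called, of which 84 were also tested with the filter and 23 had more than 50% of their counts in a single library. For the interaction DESeq2 called 1, limma voom 2 and no filter 109, with 0 to 0 over left-out libraries. For knock-in against knock-out cells DESeq2 called 137 and no filter 404, and left-out libraries gave 15 to 57. For naive cells DESeq2 called 5, limma voom 4, no filter 59, library number as covariate 1 and the block 0, and left-out libraries gave 0 to 5. The cause was not tested. Among the named genes, directions turned under other settings for Cd3e (DESeq2 -0.001386, without mitochondrial genes -0.002966, block -0.003834), Cd4 (voom -0.0091, without mitochondrial genes -0.0009792), Il2ra (voom -0.01849), Junb (voom -0.04286, block -0.01595), Fos (voom -0.1615, block -0.3445) and Mir150 (covariate 0.04175, block 0.1494). Over left-out libraries the log2 fold change turned sign for Bcl6 (-0.01956 to 0.1218), Ccr6 (-0.02669 to 0.7007), Cd3e (-0.02213 to 0.02819), Cd4 (-0.02239 to 0.02972), Gt(ROSA)26Sor (-0.1331 to 0.06132), Igkc (-0.4274 to 2.498), Il1r1 (-0.2936 to 0.8799), Il21 (-0.5844 to 0.9854), Il2ra (-0.06283 to 0.1421), Junb (-0.01266 to 0.1401), Maf (-0.2377 to 0.5899), Mir150 (-0.502 to 0.22), Tox2 (-0.08559 to 1.195), Dnajb1 (-0.4049 to 0.04158), Fos (-0.3108 to 0.5089) and Hspa1a (-0.7929 to 0.332). Low counts limit cytokine genes. The planned count of miR-150-5p seed sites was not run. The left-out libraries, covariate and block of the interaction, naive and knock-out comparisons were added after seeing the data. No paired analysis was possible because the labels give the groups no shared replicate numbers.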
